A study of Mus musculus with 27 samples.

Results

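Dmd, Mtm1 and Fhl1 are 3 X-linked genes whose human counterparts are mutated in inherited muscle disease. They were chosen by name and are 3 of the 276 X genes with allelic ratios in these data, each measured in all 23 libraries. The libraries hold chromatin-associated RNA, the nuclear RNA that stays on chromatin and is rich in nascent transcripts, from female mouse embryonic stem (ES) cells of a 129S X Cast background and from neural precursor cells (NPC). In every line used here the promoter of Xist on the 129S X chromosome was exchanged for a doxycycline-inducible TetOn promoter, and a Bgl stem-loop array was inserted at the 3′ end of Xist. The groups were the parental line (WT) without doxycycline (0 h, 2 libraries), at 3 h (2) and 24 h (2) of doxycycline, and as NPC at day 30 (1). They also included a CIZ1 knockout (CIZ1KO) at 0 h (2), 24 h (2) and as NPC at day 30 (1), and the line labelled SpenKO (called SpenRRM in the series text) at 0 h (2), 3 h (1) and 24 h (2). The last line carried a mutated Spen SPOC domain (SPOCmut) at 0 h (3) and 24 h (3), from the clones C10, C2 and G1. Doxycycline was given at 1.0 to 1.5 µg/mL, per the labels' protocols, and the sources used here do not say whether the NPC cultures received it. ES cells grew on mitomycin-treated mouse fibroblast feeders. Nothing in the labels says that same-group libraries of WT, CIZ1KO or SpenKO came from separate cultures, so p-values reflect a spread among libraries that may be technical. The labels do not say how many clones stand for these lines, so clone and genotype cannot be told apart there.

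Dystrophin, the product of Dmd, links the actin cytoskeleton to a glycoprotein complex in the muscle membrane, and its loss causes Duchenne and Becker muscular dystrophy. Mtm1 encodes myotubularin, a lipid phosphatase that removes the 3-phosphate from phosphoinositides on endosomes, and its loss causes X-linked myotubular myopathy. Fhl1 encodes a protein made of LIM domains, zinc-binding modules that hold protein partners, which is abundant in skeletal and heart muscle. Fhl1 is mutated in reducing body myopathy and in a form of Emery-Dreifuss dystrophy. In X inactivation, the RNA of Xist spreads over the chromosome that makes it and its genes are shut down. The protein SPEN binds this RNA and recruits corepressors through its SPOC domain, and CIZ1 is a nuclear matrix protein that binds Xist RNA. No muscle cell was studied here, and the genes are read only as X-linked transcription units.

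The deposited value of a gene in a library is an allelic ratio from 0 to 1. Which allele is the numerator is not given. Xist itself lay between 0.933 and 0.999 in the 23 libraries while its induced copy is the 129S one per the labels. The ratio is therefore taken as the part of the allele-specific reads that is 129S, with 0.5 for equal RNA from both X chromosomes. A fall is then a smaller share from the X with the induced Xist. A ratio holds no expression level, so less RNA from 129S and more RNA from Cast cannot be told apart, and markers of ES cells, NPC or feeders could not be checked by level. In bulk RNA, a partial loss in every cell and a full loss in some of the cells cannot be told apart either. The depth of the libraries is unknown, so no counting error is given.

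In the file's coordinates (mm10), Dmd lies on the plus strand of chromosome X from 82948869 to 85205050. Its 2256182 bases make it the longest of the 270 genes in the table that holds WT, SpenKO and SPOCmut. Its longest coding transcript in GENCODE M21 has 79 exons that fill 0.661% of the gene. Mtm1 spans 71210766 to 71315295 (104530 bases, 15 exons, 3.32% exonic) and Fhl1 spans 56731760 to 56793346 (61587 bases, 7 exons, 3.83% exonic), both on the plus strand. Most of each gene is therefore intronic, and whether intronic reads were counted is not given. Dmd starts 20.5 Mb from Xist, Mtm1 32.2 Mb and Fhl1 46.7 Mb, all on the same side of it. The annotation places 1 antisense coding gene, Tsga8, inside Dmd, besides 4 small RNA genes and processed pseudogenes on the same strand. Only a small nuclear RNA gene lies inside Fhl1, and none lies inside Mtm1. The strand setting of the counting is not given, so reads of Tsga8 in a Dmd intron cannot be separated with certainty.

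Each ratio adds up RNA from every start of a gene, and only some of the starts are shown here. Coding transcripts in GENCODE M21 have 2 distinct starts for Dmd, 5 for Mtm1 and 9 for Fhl1. Dmd has a start at the far 5′ end and another 2.10 Mb downstream, near its 3′ end, from which a short dystrophin is made. The windows below are the 250 bases before a RefSeq start (GRCm38.p6, plus strand), with each CG dinucleotide in capitals. A CG reads the same on both strands. All 3 genes had RefSeq windows, and those that overlap an annotated exon are not shown.
Dmd, upstream start, chrX:82948620-82948869: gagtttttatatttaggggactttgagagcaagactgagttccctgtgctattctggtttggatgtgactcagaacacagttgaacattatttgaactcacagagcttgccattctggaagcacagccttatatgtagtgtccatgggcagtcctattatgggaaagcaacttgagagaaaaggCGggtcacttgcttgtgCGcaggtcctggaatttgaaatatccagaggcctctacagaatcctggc
Dmd, downstream start, chrX:85048045-85048294: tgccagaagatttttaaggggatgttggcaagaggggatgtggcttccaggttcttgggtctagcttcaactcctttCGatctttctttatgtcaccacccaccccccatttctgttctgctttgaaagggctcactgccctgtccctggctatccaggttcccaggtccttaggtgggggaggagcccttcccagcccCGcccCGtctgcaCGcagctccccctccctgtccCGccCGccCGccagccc
Mtm1, upstream start, chrX:71210517-71210766: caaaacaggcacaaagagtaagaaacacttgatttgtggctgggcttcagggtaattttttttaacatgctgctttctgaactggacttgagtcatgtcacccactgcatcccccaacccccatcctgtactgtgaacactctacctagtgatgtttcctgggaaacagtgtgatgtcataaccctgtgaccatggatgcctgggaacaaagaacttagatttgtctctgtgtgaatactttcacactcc
Mtm1, downstream start, chrX:71214756-71215005: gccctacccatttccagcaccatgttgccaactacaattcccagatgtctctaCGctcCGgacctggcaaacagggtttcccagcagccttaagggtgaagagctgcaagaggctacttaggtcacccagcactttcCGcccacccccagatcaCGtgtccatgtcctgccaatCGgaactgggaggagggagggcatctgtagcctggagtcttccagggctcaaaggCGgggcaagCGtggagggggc
Fhl1, internal start, chrX:56786277-56786526: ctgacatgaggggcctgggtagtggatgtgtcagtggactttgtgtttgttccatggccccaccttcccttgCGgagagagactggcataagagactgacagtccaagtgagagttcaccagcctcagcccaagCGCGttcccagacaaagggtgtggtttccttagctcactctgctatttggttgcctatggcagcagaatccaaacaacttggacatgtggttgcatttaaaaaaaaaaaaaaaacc
The upstream Dmd window holds 2 CG, a count reached by 81.2% of the 32851 RefSeq windows of this length in the mouse. The downstream windows shown for Dmd and for Mtm1 hold 7 each, reached by 46.3%. The upstream Mtm1 window holds 0, and the Fhl1 window shown holds 3, reached by 71.0%. Of the windows left out for exon overlap, that of Mtm1 holds 13, reached by 31.5%, and that of Fhl1 holds 2. The median over all windows is 6. These counts describe the letters only, and the ratios do not say which start was used.

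Without doxycycline the 3 genes had ratios near 0.5 in WT. Dmd was at 0.473 and 0.460, Mtm1 at 0.491 and 0.475, and Fhl1 at 0.514 and 0.507, beside a median over X genes of 0.514 and 0.504. Dmd thus lay slightly on the Cast side, with 89.8 and 85.2 reads from 129S per 100 from Cast. Dmd was at 0.469 and 0.457 in CIZ1KO, at 0.468 and 0.474 in SpenKO and at 0.481, 0.470 and 0.464 in SPOCmut. For Mtm1 the values were 0.484 and 0.472 in CIZ1KO, 0.471 and 0.488 in SpenKO, and 0.495, 0.507 and 0.496 in SPOCmut. The untreated groups of the 4 lines overlapped for Dmd, and for Mtm1 the SPOCmut libraries lay just above the others.

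Fhl1 varied more between the untreated lines. It was at 0.557 and 0.519 in CIZ1KO, 0.574 and 0.590 in SpenKO, and 0.561, 0.531 and 0.557 in SPOCmut, all above both WT libraries. Its difference from WT was 0.0714 ± 0.0178 (SE, limma, adjusted p = 0.285) in SpenKO, 0.0391 ± 0.0163 (0.390) in SPOCmut and 0.0278 ± 0.0191 (0.740) in CIZ1KO, so none passed. No gene passed for these 3 differences (0% called; at an unadjusted p under 0.05, 22 of 270, 34 of 270 and 16 of 254 genes). Fhl1 is abundant in fibroblasts. Of the other 4 measured genes taken as feeder fibroblast genes, Timp1 differed by 0.0366 ± 0.0702 between untreated SpenKO and WT, Flna by 0.0140 ± 0.0137, Srpx by 0.0951 ± 0.116 and Plp2 by 0.0244 ± 0.0458. None of these 4 passed. A part of feeder RNA in the Fhl1 ratio was not tested.

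**Figure D1:**
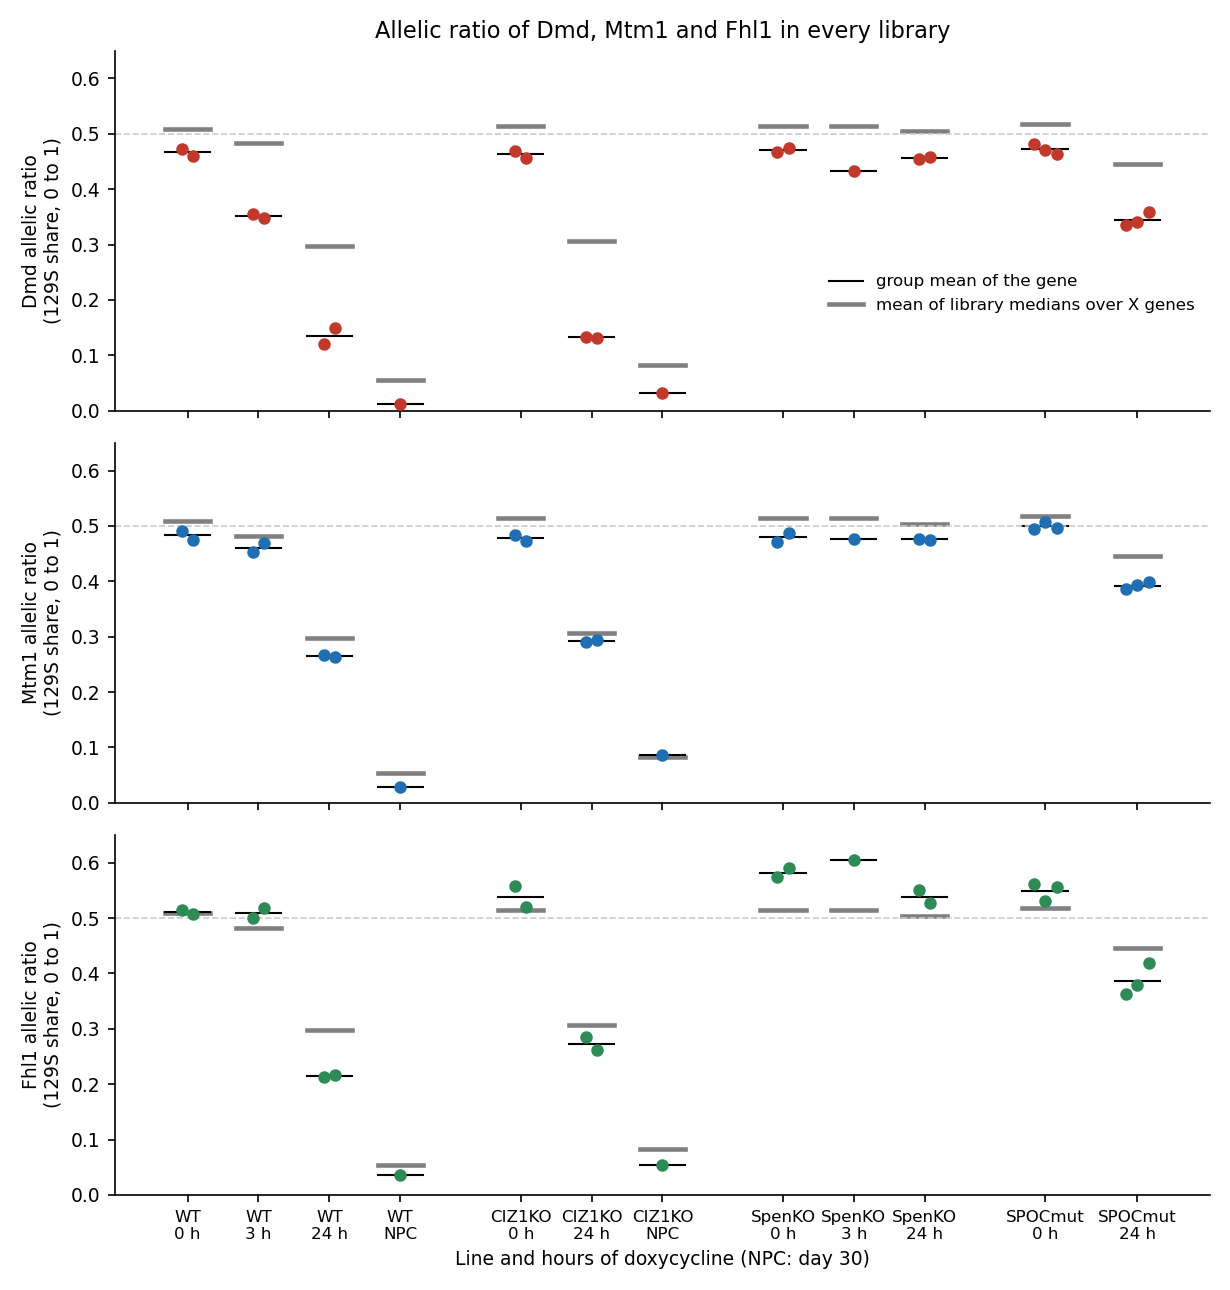
Allelic ratio (129S share, 0 to 1) of Dmd (top), Mtm1 (middle) and Fhl1 (bottom) in each of 23 libraries, by line and hours of doxycycline or as NPC at day 30. Dots are libraries, thin black bars group means and thick grey bars the mean of the library medians over X genes. After 24 h the Dmd dots of WT (0.121 and 0.149) lie far below the grey bar, and those of SpenKO (0.455 and 0.457) lie just below it.

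After 24 h of doxycycline in WT, the ratio of all 3 genes fell, that of Dmd the furthest. Dmd went to 0.121 and 0.149, from a mean of 0.467 ± 0.00918 (SD, n = 2) to 0.135 ± 0.0196. The fall was 0.332 ± 0.0124 (SE, limma, adjusted p = 4.40e-09). Both treated libraries lay far below both controls, with 13.8 and 17.5 reads from 129S left per 100 from Cast. Mtm1 went to 0.267 and 0.264, a change of -0.218 ± 0.0106 (limma, adjusted p = 1.74e-08). Fhl1 went to 0.214 and 0.216, a change of -0.295 ± 0.0178 (limma, adjusted p = 6.55e-08). Neither gene's groups overlapped. In this contrast 88.9% of 270 genes were called lower and 0% higher, so the call alone does not set the 3 genes apart. By size, 7.78% of the genes fell further than Dmd, 15.6% further than Fhl1 and 42.2% further than Mtm1, and the median gene changed by -0.197. On the log2 odds scale the changes were -2.50 for Dmd, -1.37 for Mtm1 and -1.93 for Fhl1.

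At 3 h, the early time point of WT, Dmd had already fallen and the other 2 genes had not passed the test. Dmd was at 0.355 and 0.347, both below the controls of 0.473 and 0.460, a change of -0.116 ± 0.0124 (limma, adjusted p = 7.77e-05). Mtm1 was at 0.453 and 0.469, below its controls by 0.0219 ± 0.0106 on average, which did not pass (adjusted p = 0.171, limma). Fhl1 was at 0.501 and 0.518, which overlapped its controls (change -0.000940 ± 0.0178, limma, adjusted p = 0.983). Set against each other, Dmd minus Mtm1 changed by -0.0938 and Dmd minus Fhl1 by -0.115 at 3 h. With 6 arrangements an exact permutation gives no p below 0.333, so it cannot decide whether the genes differ at this time. Of all genes 17.0% were called lower and 5.19% higher at this time. The Dmd change at 3 h was 34.9% of its change at 24 h, against 10.1% for Mtm1, 0.318% for Fhl1 and a median of 12.5% over the 240 genes that fell by 24 h. Of those 240 genes, 45 had a larger share than Dmd. The Dmd call rests on the spread pooled over all groups: with the 3 h and 0 h libraries of WT alone its adjusted p was 0.0542 in limma, and over the 9 alternatives it ran from 0.000172 to that value.

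Between 3 h and 24 h the genes fell by amounts in another order. Fhl1 changed by -0.294 ± 0.0178, Dmd by -0.216 ± 0.0124 and Mtm1 by -0.196 ± 0.0106 (limma, adjusted p = 1.12e-07, 9.26e-08 and 7.32e-08). In this interval 85.6% of genes were called lower and 0.370% higher, and 10.7% fell further than Fhl1. Nearly all of the Fhl1 change thus came after 3 h. Dmd still fell after 3 h by more than it had fallen before.

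**Figure D2:**
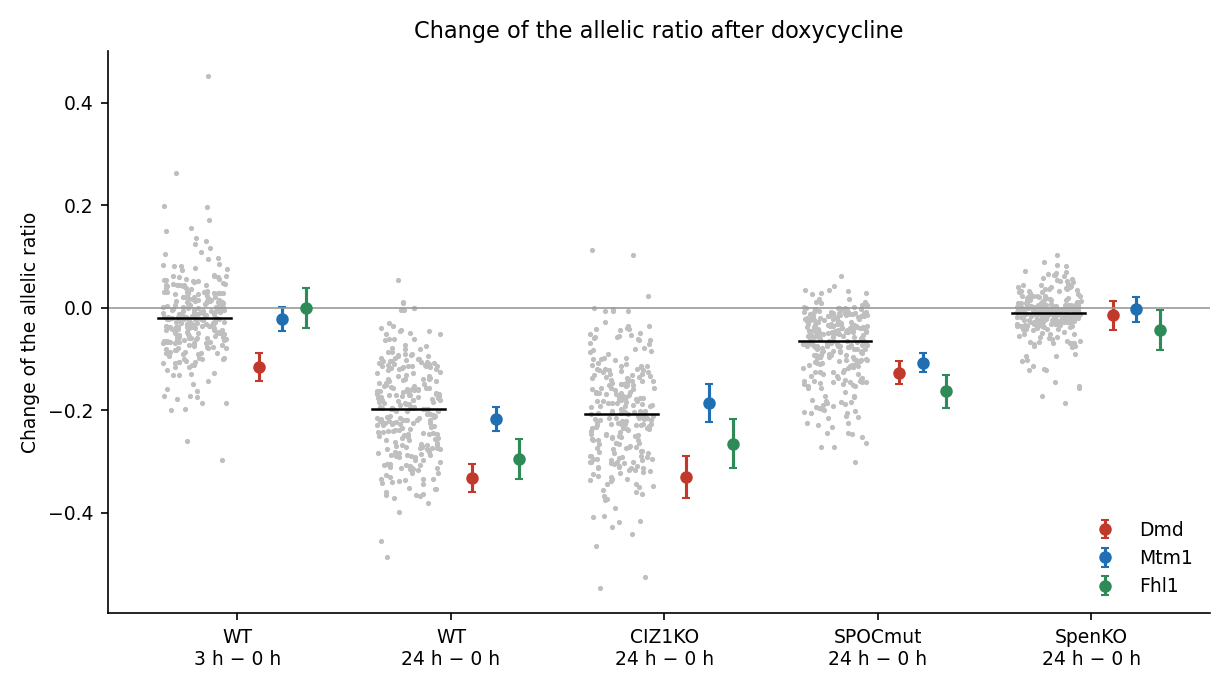
Change of the allelic ratio after doxycycline (y axis, difference of group means) for WT at 3 h and for WT, CIZ1KO, SPOCmut and SpenKO at 24 h. Grey dots are the other X genes, black bars the median over all genes, and coloured dots the 3 genes with the 95% interval from limma. At 3 h the Dmd dot (-0.116) stands apart from those of Mtm1 (-0.0219) and Fhl1 (-0.000940).

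In CIZ1KO cells the 3 genes fell at 24 h as well. Dmd was at 0.134 and 0.132, a change of -0.330 ± 0.0168 (limma, adjusted p = 7.72e-05). Mtm1 was at 0.290 and 0.294, a change of -0.186 ± 0.0151 (limma, adjusted p = 0.000138), and Fhl1 at 0.285 and 0.262, a change of -0.265 ± 0.0191 (limma, adjusted p = 0.000125). In none of the 3 did treated and untreated libraries overlap, and 85.0% of 254 genes were called lower. For Dmd the CIZ1KO values lay within the WT range at 24 h, and both for Mtm1 and for Fhl1 they lay above it.

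For none of the 3 genes did the difference in 24 h response between CIZ1KO and WT pass the limma test. The difference of the responses, CIZ1KO minus WT, was 0.00165 for Dmd (95% interval -0.0568 to 0.0601), 0.0316 for Mtm1 (-0.0210 to 0.0841) and 0.0304 for Fhl1 (-0.0360 to 0.0968). A smaller fall of several hundredths in CIZ1KO is within these intervals, and they do not show that the lines act alike. Compared at 24 h directly, Fhl1 was higher in CIZ1KO by 0.0583 ± 0.0191 (unadjusted p = 0.0231, adjusted p = 0.418, limma), Mtm1 by 0.0269 ± 0.0151 (0.655), and Dmd differed by -0.00221 ± 0.0168 (0.985). Both contrasts called 0% of 254 genes (11 and 25 at an unadjusted p under 0.05).

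In SpenKO cells none of the 3 genes passed the test at 24 h. Dmd was at 0.455 and 0.457, below its controls of 0.468 and 0.474, a change of -0.0150 ± 0.0124 (limma, adjusted p = 0.831). Mtm1 was at 0.477 and 0.475, within the range of its controls (-0.00342 ± 0.0106, limma, adjusted p = 0.989). Fhl1 was at 0.550 and 0.527, below its controls of 0.574 and 0.590, a change of -0.0431 ± 0.0178 (unadjusted p = 0.0348, adjusted p = 0.553, limma). In this line 0.741% of genes were called lower. The lower bounds of the 95% intervals were -0.0425 for Dmd, -0.0269 for Mtm1 and -0.0826 for Fhl1.

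The response of each gene differed between SpenKO and WT. The difference of the 24 h responses was 0.317 ± 0.0175 for Dmd, 0.214 ± 0.0150 for Mtm1 and 0.252 ± 0.0252 for Fhl1 (limma, adjusted p = 1.92e-07, 9.57e-07 and 8.53e-06), with 76.7% of genes called in this direction. Compared directly at 24 h, SpenKO lay above WT by 0.321 ± 0.0124 for Dmd, 0.211 ± 0.0106 for Mtm1 and 0.324 ± 0.0178 for Fhl1, where 88.1% of genes were called higher (limma, adjusted p = 4.62e-09, 2.09e-08 and 4.06e-08). The lone SpenKO library at 3 h had Dmd at 0.432, below the other 4 SpenKO libraries. In the same library Mtm1 was at 0.476, within the range of the others, and Fhl1 at 0.605, above all of them, while the median over X genes was 0.515. This group has no replicate and was not tested.

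SPOCmut cells showed a partial fall in all 3 genes. At 24 h Dmd was at 0.335, 0.340 and 0.359 in clones C10, C2 and G1, a change of -0.127 ± 0.0101 (limma, adjusted p = 3.80e-06). Mtm1 was at 0.386, 0.392 and 0.398, a change of -0.107 ± 0.00868 (adjusted p = 3.97e-06, limma). Fhl1 was at 0.364, 0.379 and 0.419, a change of -0.163 ± 0.0145 (adjusted p = 5.87e-06, limma). Every treated clone lay below every untreated one for each gene, and 49.6% of genes were called lower, with a median change of -0.0658. Within a clone Dmd changed by -0.146, -0.130 and -0.105, and Fhl1 by -0.198, -0.152 and -0.138. Clone C10 had the largest fall of both genes, and for Mtm1 the clones lay closer together at -0.109, -0.115 and -0.0982.

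The SPOCmut fall was 38.3% of the WT fall for Dmd, 49.2% for Mtm1 and 55.0% for Fhl1, against a median of 34.7% over the 240 genes that fell in WT. The difference of the responses, SPOCmut minus WT, was 0.205 ± 0.0160 for Dmd, 0.111 ± 0.0137 for Mtm1 and 0.133 ± 0.0230 for Fhl1 (limma, adjusted p = 2.81e-06, 8.18e-05 and 0.000604), where 58.5% of genes were called higher. Directly at 24 h SPOCmut lay above WT by 0.210 ± 0.0113, 0.127 ± 0.00970 and 0.172 ± 0.0163 for the 3 genes in this order (limma, adjusted p = 6.50e-08, 8.93e-07 and 3.71e-06), where 78.9% of genes were called higher and 0.370% lower. SPOCmut also differed from SpenKO, by -0.112 ± 0.0160 for Dmd, -0.104 ± 0.0137 for Mtm1 and -0.119 ± 0.0230 for Fhl1 (limma, adjusted p = 0.000903, 0.000735 and 0.00483). Here 23.0% of genes were called lower. At 24 h each gene therefore stood in the order WT, SPOCmut, SpenKO, with no overlap of the libraries. The library medians over X genes stood in the same order without overlap, with means of 0.298, 0.446 and 0.504. This order thus does not set the 3 genes apart. The direct differences at 24 h, SPOCmut minus SpenKO, were -0.111 ± 0.0113, -0.0836 ± 0.00970 and -0.152 ± 0.0163 for Dmd, Mtm1 and Fhl1 (limma, adjusted p = 5.02e-05, 8.21e-05 and 6.06e-05), where 40.7% of genes were called lower and 1.11% higher.

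The 3 genes were also compared with each other, by the difference of 2 genes' ratios within a library, over WT, CIZ1KO and SPOCmut with equal weight. Dmd fell further than Mtm1 by 24 h, with a mean difference of -0.0925 (exact two-sided permutation within lines, p = 0.00278, the smallest that 720 arrangements allow, adjusted over 3 pairs 0.00417). Mtm1 fell less than Fhl1, with a mean difference of 0.0706 (exact permutation p = 0.00278, adjusted 0.00417). For Dmd minus Fhl1 the mean of -0.0220 did not pass (exact permutation p = 0.211, adjusted 0.211). It averages lines whose values had opposite signs, so it does not show that the 2 genes fell alike. By line the Dmd minus Mtm1 value was -0.114 in WT, -0.144 in CIZ1KO and -0.0199 in SPOCmut. The Dmd minus Fhl1 value was -0.0363 in WT and -0.0651 in CIZ1KO but 0.0355 in SPOCmut. Without SPOCmut all 3 pairs had an adjusted p of 0.0556 in the exact permutation, the smallest that the other lines allow.

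In NPC at day 30 the 3 genes had their lowest ratios of all groups. In the WT library Dmd was at 0.0121, Mtm1 at 0.0293 and Fhl1 at 0.0355, with a median over 254 X genes of 0.0546. For Dmd this is 1.23 reads from 129S per 100 from Cast. The CIZ1KO library had higher values, 0.0325 for Dmd, 0.0861 for Mtm1 and 0.0539 for Fhl1, beside a median of 0.0830. These differences, 0.0204, 0.0568 and 0.0184, stood beside a median gene difference of 0.0105, and 153 of 254 genes were higher in CIZ1KO. A larger difference than that of Mtm1 was seen in 49 genes. With 1 library a group, there is no replicate check on these values.

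**Figure D3:**
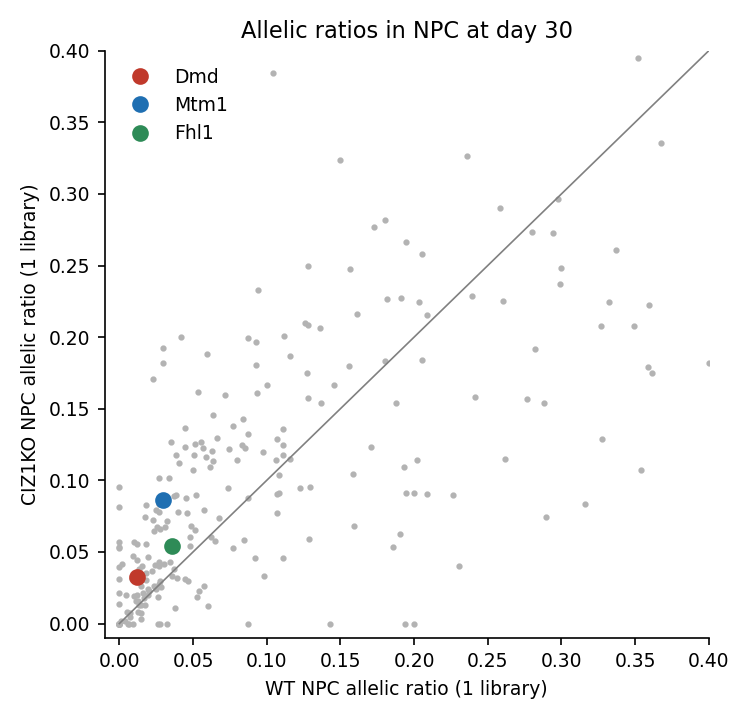
Allelic ratio in the CIZ1KO NPC library (y axis) against the WT NPC library (x axis) for the 247 of 254 X genes with both ratios up to 0.4. Grey dots are genes, the line marks equal ratios, and the coloured dots of Dmd, Mtm1 and Fhl1 all lie above it, Mtm1 the furthest at 0.0861 against 0.0293.

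Ordered over all 12 groups, the Dmd ratio rose from the NPC libraries through 24 h of CIZ1KO and WT (means 0.133 and 0.135, with overlapping libraries) to SPOCmut at 24 h (0.345) and WT at 3 h (0.351), which overlapped too. SpenKO at 3 h (0.432) came next. SpenKO at 24 h (0.456) and the 4 untreated groups (0.463 to 0.472) overlapped from one to the next. Mtm1 kept SPOCmut at 24 h (0.392) clearly below WT at 3 h (0.461). For Fhl1 the WT groups at 3 h and 0 h were next to each other at 0.509 and 0.510, with the lone SpenKO library at 3 h (0.605) the highest. Below it came SpenKO at 0 h (0.582), then SPOCmut at 0 h (0.550), SpenKO at 24 h (0.539) and CIZ1KO at 0 h (0.538), whose libraries overlapped from one to the next among the last 3.

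Genes next to the 3 on the X did not all share their time course in WT. Before Dmd, Tmem47, a membrane protein gene, changed by -0.00889 at 3 h (limma, adjusted p = 0.776) and by -0.147 at 24 h. After it, Tab3, an adaptor of the kinase TAK1, changed by -0.0794 at 3 h (limma, adjusted p = 0.00670) and by -0.218 at 24 h. Their starts lie 1878 and 2625 kb from that of Dmd, and neither fell as far as Dmd by either time; these differences were not tested. Beside Mtm1 lies Mamld1, with WT means of 0.261 at 0 h, 0.713 at 3 h and 0.0426 at 24 h. Its changes were 0.452 ± 0.0633 at 3 h and -0.218 ± 0.0633 at 24 h, with a wide error beside 0.0106 for Mtm1. On the other side of Mtm1, Mtmr1, a relative of myotubularin, changed by 0.0218 ± 0.0238 and -0.212. Beside Fhl1, Mtap7d3 changed by 0.0334 at 3 h and by -0.195 at 24 h. Its mean went from 0.246 at 0 h to 0.0508 at 24 h, so it started far from 0.5. All 5 of these neighbours fell by 24 h in WT and 0 of 5 passed in SpenKO, beside 88.9% and 0.741% of all genes called lower.

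**Figure D4:**
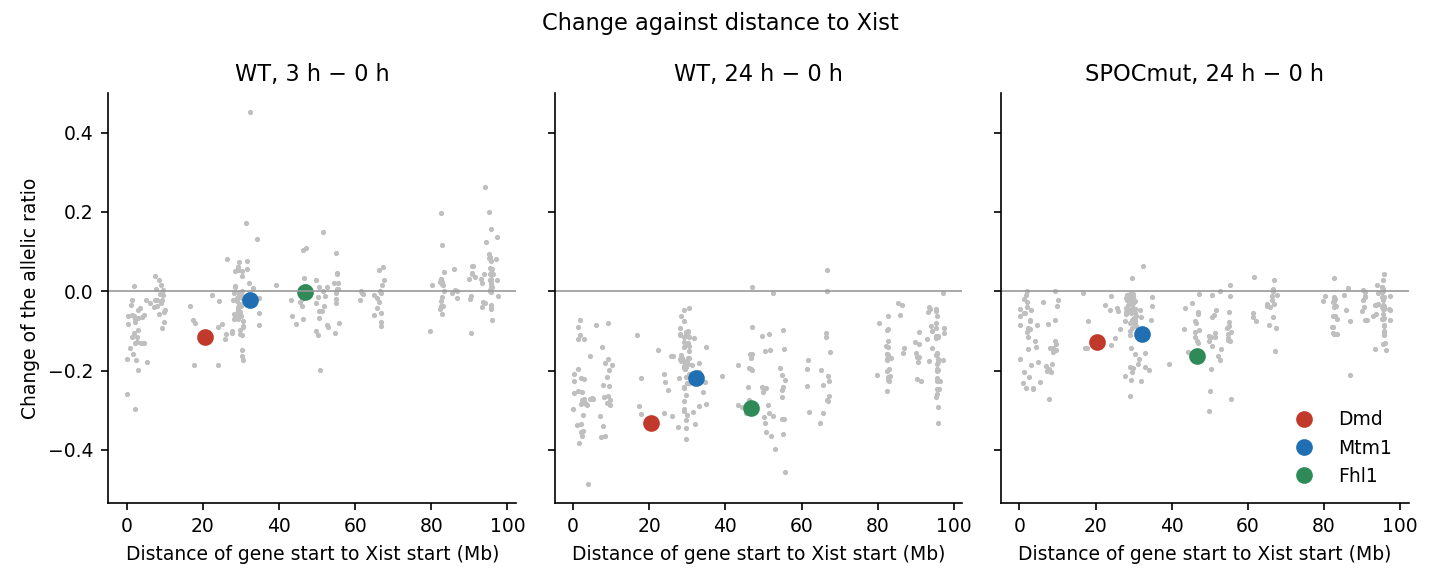
Change of the allelic ratio (y axis) against the distance of a gene's start to the start of Xist in Mb (x axis) for WT at 3 h, WT at 24 h and SPOCmut at 24 h. Grey dots are X genes other than Xist, and coloured dots mark Dmd at 20.5 Mb, Mtm1 at 32.2 Mb and Fhl1 at 46.7 Mb. At 3 h the 3 genes changed by -0.116, -0.0219 and -0.000940 in this order, while at 24 h Fhl1 (-0.295) lies below Mtm1 (-0.218). A relation to distance over all genes was not tested, and 3 genes do not show one.

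The genes whose ratios were most like those of Dmd over the 17 libraries of the same table were Tex11, a meiotic gene, with a root-mean-square difference of 0.0352, Pls3, an actin-bundling plastin gene, with 0.0396, and Gm364 with 0.0414. The median over all genes was 0.113. Tex11 and Pls3 also fell at 3 h in WT, with changes of -0.128 and -0.104 (limma, adjusted p = 0.00277 and 0.00796). Gm364 did not pass at 3 h (-0.0367, limma, adjusted p = 0.223). At 24 h in SPOCmut the means of Tex11 and Pls3, 0.288 and 0.264, were lower than that of Dmd at 0.345, and that of Gm364 was higher at 0.386. The WT libraries at 3 h were among those used to pick these genes. For Mtm1 the genes most alike included the deacetylase gene Hdac6 (0.0270) and the RNA-binding protein gene Rbmx (0.0302). For Fhl1 they were Maged1 (0.0329), the filamin A gene Flna (0.0361) and Cd99l2 (0.0396). None of the 3 genes was among the 3 nearest of another: Mtm1 ranked 26 of 269 from Dmd, and Fhl1 ranked 99. These likenesses share libraries and are given as a description.

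Of 12 other X-linked genes listed for muscle disease or the dystrophin complex, 7 were measured: Emd, Lamp2, Vma21, Phka1, Taz, Xk and Slc6a8. No gene of the dystrophin complex is among these 7. All 7 fell in WT at 24 h, where 88.9% of all genes did (median -0.195, beside -0.197 over all genes), among them Emd, the emerin gene, by 0.116 ± 0.0360, Lamp2, a lysosomal membrane protein gene, by 0.198 ± 0.0166, and Phka1, a muscle phosphorylase kinase subunit gene, by 0.337 ± 0.0265. At 3 h, where 17.0% of all genes fell, 1 of the 7 did, Phka1, by 0.143 ± 0.0265 (limma, adjusted p = 0.00326), from a mean of 0.500 to 0.357. In SPOCmut 1 of the 7 fell as well, again Phka1, with a change of -0.232 (median of the 7 -0.0320, beside -0.0658 over all genes), where 49.6% of all genes fell. In SpenKO 0 of 7 passed, beside 0.741% of all genes called lower, and in CIZ1KO 5 of 7 fell, beside 85.0%. Of 5 measured motor neuron and motor nerve disease genes, 5 fell in WT at 24 h, 4 in SPOCmut and 0 in SpenKO, beside 88.9%, 49.6% and 0.741% of all genes. Of 5 measured phosphoinositide and endosome genes, the setting of Mtm1, 5 fell in WT at 24 h, 5 in CIZ1KO and 5 in SPOCmut, beside 88.9%, 85.0% and 49.6% of all genes. One of them, Ocrl, an inositol phosphatase gene, changed by -0.223 in WT and -0.102 in SPOCmut, beside -0.218 and -0.107 for Mtm1. Of the 5 measured feeder fibroblast genes, which include Fhl1, 4 fell in WT at 24 h, 4 in CIZ1KO, 2 in SPOCmut and 0 in SpenKO, beside 88.9%, 85.0%, 49.6% and 0.741% of all genes. At 3 h 0 of the 5 fell and 1 rose (17.0% and 5.19% of all genes), Flna, by 0.0533 ± 0.0137 (limma, adjusted p = 0.0164).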

How the data were processed

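Per the labels' protocols, chromatin-associated RNA was made into stranded total RNA libraries and sequenced as paired ends. Tools named in the submitters' processing notes, with no role given, are STAR 2.4.2a, Bowtie2 2.3.2, edgeR, bedtools, SAMtools and featureCounts. The build is mm10. Each gene and library has 1 deposited value, its allelic ratio, as a fraction from 0 to 1, in 2 X tables (270 genes in 17 libraries and 254 in 10). The tables share 248 genes and 4 WT libraries with identical values. The sources used here give no filters, strand setting or depth. A chromosome 15 table with 12 value columns was not used. Columns marked Dox without a time were taken as 24 h.

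Ratios were fitted untransformed with limma 3.58.1 (R 4.3.3), all libraries of a table in 1 fit and no replicate block, with Benjamini-Hochberg adjustment over the table. WT, SpenKO and SPOCmut came from the first table, comparisons with CIZ1KO from the second. Calls were made where the adjusted p was under 0.05. Mean ± SD refers to libraries and other errors are limma standard errors. The code was tested on simulated data. Pairs of genes were compared by exact permutation (Python 3.11.15). SPOCmut numbers pair libraries because each is 1 clone. Their deviations from group means correlated at -0.0170, -0.113 and 0.148 between 0 h and 24 h. Named genes were the 3 genes, the nearest measured gene on each side, the 3 most alike by root-mean-square difference and fixed lists of muscle disease, motor nerve, phosphoinositide and feeder genes. A few genes that this rule names are not reported here. The genes and lists were chosen with earlier results of these data known. Alternatives were log odds (ratios held between 0.01 and 0.99), only the groups compared, another variance model, Benjamini-Yekutieli adjustment, a replicate block, each replicate left out and the other table.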

Additional observations from a re-analysis of the deposited data

Results flagged for a closer look

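Each 24 h response below differed between 2 lines by a test of the difference itself in limma. Between SpenKO and WT the difference was 0.317 for Dmd, 0.214 for Mtm1 and 0.252 for Fhl1. Between SPOCmut and WT it was 0.205 for Dmd, 0.111 for Mtm1 and 0.133 for Fhl1. Between SPOCmut and SpenKO it was -0.112 for Dmd, -0.104 for Mtm1 and -0.119 for Fhl1. In these 3 comparisons 76.7%, 58.5% and 23.0% of all genes were called in the same direction. The order of Dmd and Fhl1 also went opposite ways in 2 lines. From 0 h to 24 h Dmd fell further than Fhl1 in both same-numbered pairs of WT libraries and less far in all 3 SPOCmut clones, and the Dmd minus Fhl1 changes of the lines differ by 0.0718. This last difference was not tested.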

How the results depend on the processing

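Of 31 results of the 3 genes called in limma, 341 of their 342 alternative values kept the direction and the call. The exception was Dmd at 3 h in WT, at -0.116 with an adjusted p of 0.0542 when only the WT groups at 0 h and 3 h were fitted. Without SPOCmut the pair values were -0.129 for Dmd minus Mtm1 and 0.0781 for Mtm1 minus Fhl1, both at an adjusted p of 0.0556, the smallest possible with fewer libraries. All sign changes were in values that had not passed. With the replicate block, a difference between lines at 1 time is that of the fitted levels of replicate 1, not of the group means. The fit gives each replicate number 1 offset over all times of its line, so these are not the measured values of replicate 1. The CIZ1KO minus WT value of Dmd was then 0.00482 at 24 h and 0.00316 at 0 h. The block changed no call of the 3 genes. For WT, CIZ1KO and SpenKO the numbers are not stated to pair libraries, and same-numbered deviations correlated between -0.107 and 0.161. Leaving out single replicates gave -0.00991 to 0.00803 for Fhl1 in WT at 3 h and -0.0122 to 0.0155 for the difference of Dmd responses between CIZ1KO and WT. For CIZ1KO minus WT it gave -0.0161 to 0.0117 for Dmd at 24 h, -0.0103 to 0.00263 for Dmd at 0 h and -0.0130 to 0.00368 for Mtm1 at 0 h. It gave -0.0120 to 0.00512 for Mtm1 in SpenKO at 24 h. For SpenKO minus WT at 0 h it gave -0.00202 to 0.0110 for Dmd and -0.0121 to 0.00499 for Mtm1, and for SPOCmut minus WT at 0 h -0.00125 to 0.0117 for Dmd. Counts of called genes moved by over 1.5 times in a few settings. At 3 h in WT the 60 calls became 2 with only the groups compared and 38 with Benjamini-Yekutieli. For CIZ1KO against WT the 0 calls became 2 for the responses and 4 at 0 h without replicate 1 of untreated CIZ1KO. In SpenKO the 2 calls became 0 with only the groups compared, with Benjamini-Yekutieli, with the block, and without untreated replicate 2 or either 24 h replicate. For SPOCmut against SpenKO the 62 calls for the responses became 34 with Benjamini-Yekutieli and 41 without SpenKO 24 h replicate 1. The 113 at 24 h became 67 with Benjamini-Yekutieli and 67 with the block, where fitted levels of replicate 1 are compared. The causes were not tested. Depth is unknown and limits how small a ratio in NPC can be read.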

Other observations

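Dmd was set beside the other longest genes, a choice made after the data were seen. Of the 10 longest genes of the table, 10 fell in WT at 24 h, where 88.9% of all genes fell. At 3 h 4 fell (Dmd, Fgf13, Gpc3 and Pola1) and 1 rose (Aff2), where 17.0% of all genes fell and 5.19% rose, and the difference from other genes was not tested. At 3 h Fgf13, a growth factor homologue gene of 523428 bases, changed by -0.0814, Gpc3, a glypican gene, by -0.0492 and Pola1, the DNA polymerase alpha subunit gene, by -0.0485, against -0.116 for Dmd. Il1rapl1, of 1368383 bases and the next in length after Dmd, had a ratio of 0.907 at 0 h and 0.796 at 24 h in WT, and changed by -0.00536 in SPOCmut. Over 269 genes, the Spearman correlation of the change with log10 gene length was -0.0528 at 3 h and -0.210 at 24 h in WT, as a description over genes that share the same libraries.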
